A study of Homo sapiens with 9 samples.

Results

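The BCL2 family decides whether a cell releases the contents of its mitochondria and dies, and 10 of its genes were followed here in melanoma cells whose growth signal was blocked. The genes were the BH3-only death genes BMF, BCL2L11 (BIM), PMAIP1 (NOXA), BBC3 (PUMA) and BIK, the survival genes BCL2, BCL2L1 (BCL-X), MCL1 and BCL2A1, and the effector BAX. A gene was measured where a row of the array table named it alone, and 8 of the 10 listed genes had such a row, among 17047 genes in all. The single rows that list MCL1 and BCL2A1 name other genes too, so these 2 survival genes are not analysed here. All 8 measured genes passed the filter on dim genes and were among the 12785 tested. The dimmest were BIK, BCL2L11 and BCL2, at percentiles 29.5, 34.6 and 42.7 of mean intensity among all genes with a row.

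The cells were A375P, an established human melanoma line that carries an activated BRAF kinase. They received 1 µM PD184352, an inhibitor of the kinase MEK, or 0.4 µM PLX4720, an inhibitor of RAF kinases, or the solvent DMSO, each for 2, 6 or 24 h. There was 1 deposited column of linear intensities for each of the 9 combinations, and median intensities lay between 99.91 and 102.4 with PD184352, between 100.3 and 101.6 with PLX4720, and between 98.96 and 101.6 with DMSO. The series design speaks of triplicates, but no label says whether a column is 1 array or a mean of several, and no value below has a spread between cultures. All cells were of 1 line, and these columns measure RNA, so the level of a gene's protein is not known from them.

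BH3-only proteins sense stress and bind the survival proteins, which frees BAX and its relative BAK1 to open the outer mitochondrial membrane. Cytochrome c then leaves and starts the caspase cascade through the apoptosome. The kinase ERK, which lies below BRAF and MEK, is known to mark BIM protein for destruction, and BMF and BIM are both known as mediators of death when this pathway is inhibited in melanoma. PMAIP1 protein binds mainly MCL1 and BCL2A1, the survival proteins whose rows could not be used.

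**Figure D1:**
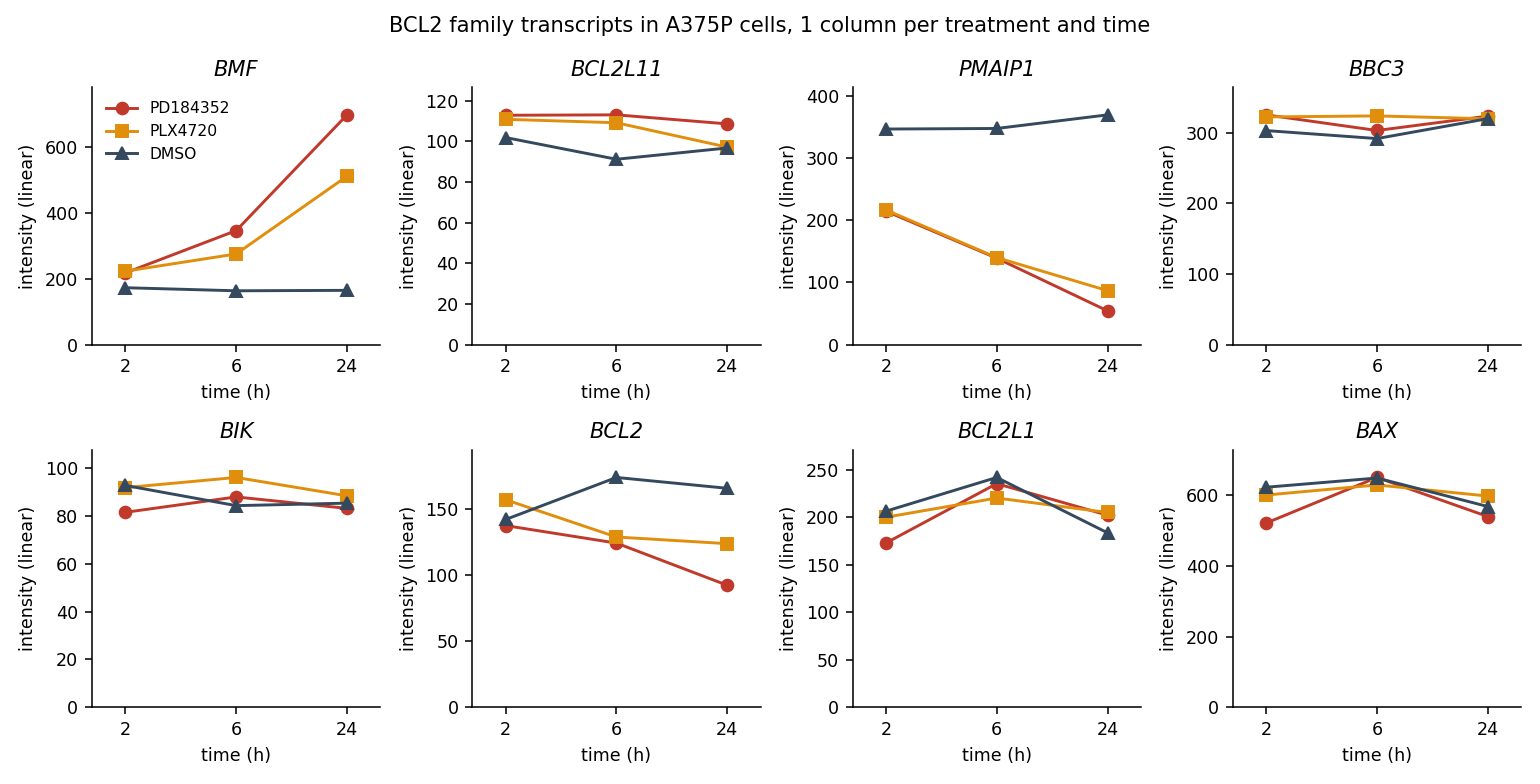
Intensity (linear scale, vertical axes from 0) of the 8 measured genes at 2, 6 and 24 h (evenly spaced) with PD184352, PLX4720 and DMSO, 1 point per column. BMF reached 697 with PD184352 and 511 with PLX4720 at 24 h against 165 with DMSO, and PMAIP1 fell to 54.4 and 86.9 against 369.

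The genes that moved furthest were BMF and PMAIP1, and the region around the start of each is shown because these 2 BH3-only genes moved in opposite directions. The sequences are RefSeq's, from build GRCh38.p14, and run from 250 bases before to 50 bases from the gene start on, 5′ to 3′ on the gene's strand. RefSeq gives BMF 2 starts, with the windows chr15:40108830-40109129 and chr15:40106917-40107216, both on the minus strand. It gives PMAIP1 1 start, with the window chr18:59899746-59900045 on the plus strand. Capitals mark the GC box, the only 1 of 5 searched motifs that matched in these windows.
BMF first start: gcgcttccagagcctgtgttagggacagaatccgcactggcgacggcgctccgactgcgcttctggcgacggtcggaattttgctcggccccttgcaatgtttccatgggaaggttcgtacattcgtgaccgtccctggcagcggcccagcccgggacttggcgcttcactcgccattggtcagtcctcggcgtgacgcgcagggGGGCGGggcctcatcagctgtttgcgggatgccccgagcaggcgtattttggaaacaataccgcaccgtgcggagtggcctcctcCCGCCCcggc
BMF second start: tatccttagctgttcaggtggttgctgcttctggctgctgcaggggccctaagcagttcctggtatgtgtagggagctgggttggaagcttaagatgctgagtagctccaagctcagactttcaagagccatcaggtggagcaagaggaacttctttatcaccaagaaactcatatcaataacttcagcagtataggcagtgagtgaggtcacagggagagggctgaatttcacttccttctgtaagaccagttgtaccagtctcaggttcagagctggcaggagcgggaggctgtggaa
PMAIP1: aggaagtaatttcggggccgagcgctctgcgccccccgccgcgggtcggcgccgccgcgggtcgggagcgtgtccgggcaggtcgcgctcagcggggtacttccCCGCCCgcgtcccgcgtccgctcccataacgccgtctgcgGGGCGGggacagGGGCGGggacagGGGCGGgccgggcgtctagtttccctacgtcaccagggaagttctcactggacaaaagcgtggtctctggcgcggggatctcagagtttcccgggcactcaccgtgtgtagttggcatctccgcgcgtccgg
The motifs were a FOXO element (GTAAACA), a cyclic AMP response element (TGACGTCA), an E-box (CACGTG), an ETS element (CCGGAA) and a GC box (GGGCGG), each sought on both strands, and no 2 of the marked matches overlapped. The GC box matched 4 times at PMAIP1, 2 times at the first BMF start and 0 times at the second. It also matched 3 times at BCL2L11, 2 times at BAX and 1 time at a BCL2L1 start, genes that were not called, and 45.0% of 35116 promoters of the same length hold it. Of the 8 measured genes 7 had a promoter in the table, and the FOXO element, held by 3.42% of all promoters, matched only at BCL2L11, 1 time. The ETS element, held by 17.2%, matched only at 1 of the 2 BCL2L1 starts, the E-box, held by 7.26%, at BBC3 and 4 times at BAX, and the cyclic AMP response element, held by 1.85%, at none. Only exact matches of all letters were counted, so a site with other letters is missed, and no match does not mean no site. A match is a run of letters and not a shown binding site.

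BMF encodes a BH3-only protein that is held at the cytoskeleton by a dynein light chain until it is released. Its intensity was 218, 346 and 697 at 2, 6 and 24 h with PD184352, 223, 275 and 511 with PLX4720, and 173, 164 and 165 with DMSO. All 6 inhibitor columns lay above all 3 DMSO columns, which was so for 1.78% of the genes tested, and the intensity was higher at each later time with both compounds while it stayed level with DMSO (log2 intensity 7.39 ± 0.043, SD, n = 3 columns at different times). At 24 h BMF was 4.21-fold higher with PD184352 and 3.09-fold higher with PLX4720 than with DMSO, and at 6 h it was 2.11-fold higher with PD184352 and 1.68-fold higher with PLX4720. The doses of the compounds differed, so these folds are given side by side with no test between compounds, and both share the DMSO column of their time.

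The test across genes set the mean of both inhibitor columns against the DMSO column of the same time with limma, and a gene was called at a Benjamini-Hochberg adjusted p below 0.05. Changes are differences of log2(value + 1), a scale that understates the change of dim genes, and the standard error (SE) comes from the difference between the 2 compounds, which are not replicates. BMF rose by 0.91 at 6 h (SE 0.17, limma adjusted p = 0.0184) and by 1.85 at 24 h (SE 0.17, adjusted p = 3.2e-05). Ranked by this change it stood at position 5 from the top of 12785 genes at 6 h and 19 at 24 h. At 2 h its change was 0.35 (SE 0.17, adjusted p = 0.703), position 65, which did not pass. The call at 6 h was lost without the PD184352 6 h column (0.75, limma adjusted p = 0.0920), without either inhibitor column of 2 h (adjusted p = 0.0648 each) and with no filter on dim genes (adjusted p = 0.0645). The call at 24 h held in all 17 alternatives, at changes of 1.63 to 2.07.

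PMAIP1 encodes NOXA, a small BH3-only protein that is also a textbook target of p53. Its intensity was 215, 139 and 54.4 at 2, 6 and 24 h with PD184352, 217, 140.02 and 86.9 with PLX4720, and 347, 348 and 369 with DMSO. All 6 inhibitor columns lay below all 3 DMSO columns, which was so for 5.23% of the genes tested, and each later column was lower than the one before it with both compounds. Both compounds gave nearly the same intensity at 2 and at 6 h, where the log2 difference between them was −0.013 and −0.0096, while at 24 h it was −0.67. At 24 h PMAIP1 was 6.69-fold lower with PD184352 and 4.22-fold lower with PLX4720 than with DMSO.

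In the test across genes PMAIP1 fell by 1.31 on the log2 scale at 6 h (SE 0.20, limma adjusted p = 0.00603) and by 2.41 at 24 h (SE 0.20, adjusted p = 1.7e-05). It stood at position 19 from the bottom of 12785 genes at 6 h and 13 at 24 h, and both calls held in all 17 alternatives at each time. At 2 h the change was −0.68 (SE 0.20, adjusted p = 0.441), position 21 from the bottom, and did not pass. It was called at 2 h without either inhibitor column of 24 h (adjusted p = 0.00019 each), where the spread no longer includes the difference between compounds at 24 h.

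BCL2L11 encodes BIM, which binds all the survival proteins of the family. Its intensity was 113, 113 and 109 at 2, 6 and 24 h with PD184352, 111, 109 and 97.2 with PLX4720, and 102, 91.3 and 96.8 with DMSO. Of the 6 inhibitor columns 5 lay above all 3 DMSO columns, and the exception was PLX4720 at 24 h. The change was 0.13 at 2 h, 0.28 at 6 h and 0.085 at 24 h (SE 0.094 each), with limma adjusted p = 0.777, 0.168 and 0.576, so it passed at no time. The 95% interval on the log2 scale ran from −0.075 to 0.34 at 2 h, from 0.073 to 0.49 at 6 h, which excludes 0 (unadjusted p = 0.0132), and from −0.12 to 0.29 at 24 h. The mean intensity of BCL2L11 stood at percentile 34.6, below the leukocyte marker CD14 (39.7), so no call does not mean no change. There is 1 value for the gene, and its splice forms were not analysed here.

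**Figure D2:**
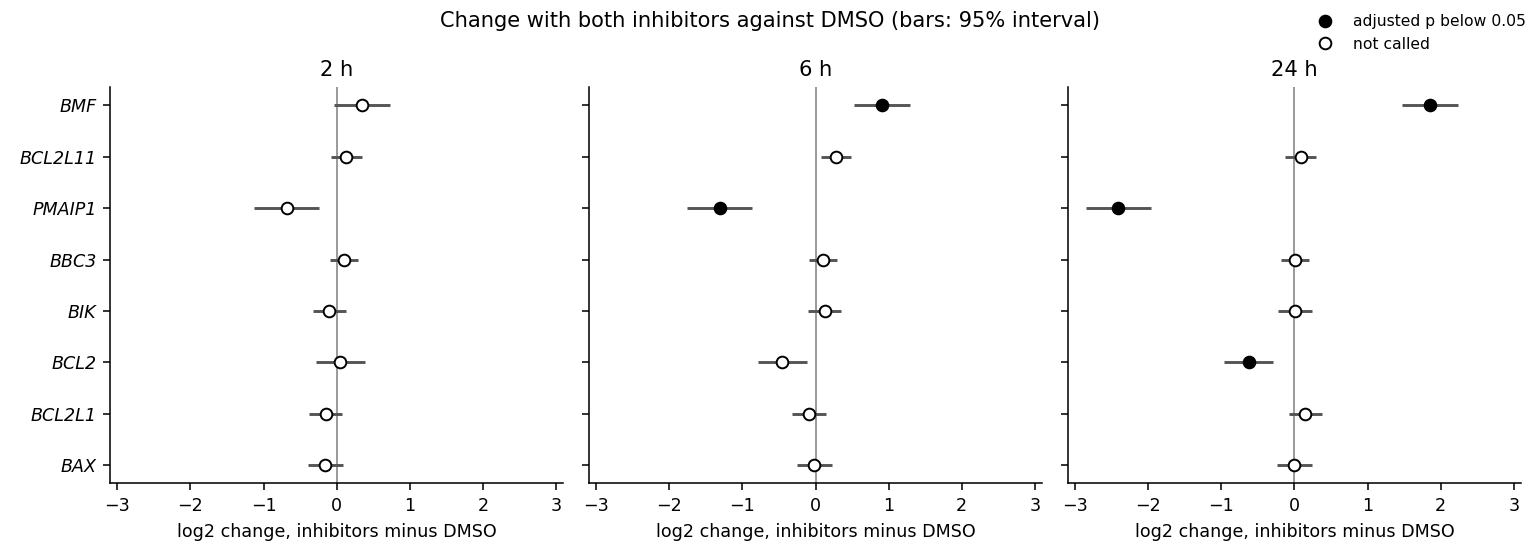
Log2 change (horizontal axes, inhibitors minus DMSO) of the 8 measured genes at 2, 6 and 24 h, with 95% intervals from limma, filled points for an adjusted p below 0.05. BMF stands at 1.85 and PMAIP1 at −2.41 at 24 h, and BCL2L11, BBC3, BIK, BCL2L1 and BAX have intervals that include 0 there.

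BBC3 and BIK, the other BH3-only genes, did not pass at any time. BBC3 encodes PUMA, like NOXA a p53 target, and its intensity was 326, 303 and 324 at 2, 6 and 24 h with PD184352, 323, 324 and 319.9 with PLX4720, and 303, 292 and 320.2 with DMSO. The values of the 2 groups lay close together at every time. Its changes were 0.095, 0.10 and 0.0074 (SE 0.086 each; limma adjusted p = 0.828, 0.653 and 0.965), and its 95% interval at 24 h, −0.18 to 0.20, includes 0. BIK, which acts at the endoplasmic reticulum, read 81.4, 87.8 and 83.1 with PD184352, 91.7, 96.0 and 88.3 with PLX4720, and 92.6, 84.2 and 85.3 with DMSO. Its inhibitor and DMSO columns overlapped, and its changes were −0.099, 0.12 and 0.0065 (SE 0.10 each; limma adjusted p = 0.866, 0.652 and 0.98). The mean intensity of BIK stood at percentile 29.5, near the leukocyte marker CD79A (28.9), so no call does not mean no change. Of the 5 BH3-only genes, 1 thus rose and 1 fell at 6 h, where 0.548% of all genes tested rose and 2.74% fell. The same 2 genes were called at 24 h, where 12.5% of all genes rose and 19.2% fell, so that 2 of 5 is near the overall 31.6%. The median change of the 5 at 24 h was 0.0074, against −0.0094 over all genes tested.

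BCL2 encodes the founding survival protein of the family. Its intensity was 137, 124 and 92.1 at 2, 6 and 24 h with PD184352, 157, 129 and 124 with PLX4720, and 142, 173 and 165 with DMSO. Of the 6 inhibitor columns 5 lay below all 3 DMSO columns, and the exception was PLX4720 at 2 h, while the DMSO column of 2 h was lower than the later 2. BCL2 fell by 0.63 on the log2 scale at 24 h (SE 0.15, limma adjusted p = 0.00959), which is 1.79-fold lower with PD184352 and 1.34-fold lower with PLX4720. At 6 h its change was −0.46 (SE 0.15, adjusted p = 0.165), which did not pass, though it was called without either inhibitor column of 24 h (adjusted p = 0.0065 each).

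BCL2L1, known for a long survival form, BCL-XL, and a short death form that were not analysed separately here, read 173, 236 and 202 at 2, 6 and 24 h with PD184352, 200.2, 220.5 and 205 with PLX4720, and 207, 242 and 184 with DMSO. The inhibitor and DMSO columns overlapped, and the changes of −0.15, −0.087 and 0.15 (SE 0.10 each) did not pass (limma adjusted p = 0.772, 0.773 and 0.336). BAX, the pore-forming effector, read 521, 649 and 539 with PD184352, 599.7, 628 and 597 with PLX4720, and 622, 648 and 567 with DMSO. Its changes were −0.15, −0.020 and −0.00021 (SE 0.11 each; limma adjusted p = 0.777, 0.956 and 0.999), with overlapping columns, and its 95% interval at 24 h ran from −0.24 to 0.24. PMAIP1, BBC3 and BAX are all p53 targets, of which PMAIP1 fell at 6 and 24 h and BBC3 and BAX did not pass at any time. Whether the 3 differ from each other was not tested.

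At 2 h limma called 0 of the 8 measured genes, against 0.0860% of all genes tested (0.0156% higher and 0.0704% lower), and 1 gene, PMAIP1, had an unadjusted p below 0.05, against 7.41% of all genes. At 6 h limma called BMF (higher) and PMAIP1 (lower), 2 of 8, against 3.29% of all genes (0.548% higher and 2.74% lower), and 4 had an unadjusted p below 0.05, against 15.5%. At 24 h it called BMF (higher), PMAIP1 and BCL2 (lower), 3 of 8, against 31.6% of all genes (12.5% higher and 19.2% lower), and the same 3 had an unadjusted p below 0.05, against 40.1%. The share at 24 h was near that of all genes, so the number of calls there is not a result about the family.

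**Figure D3:**
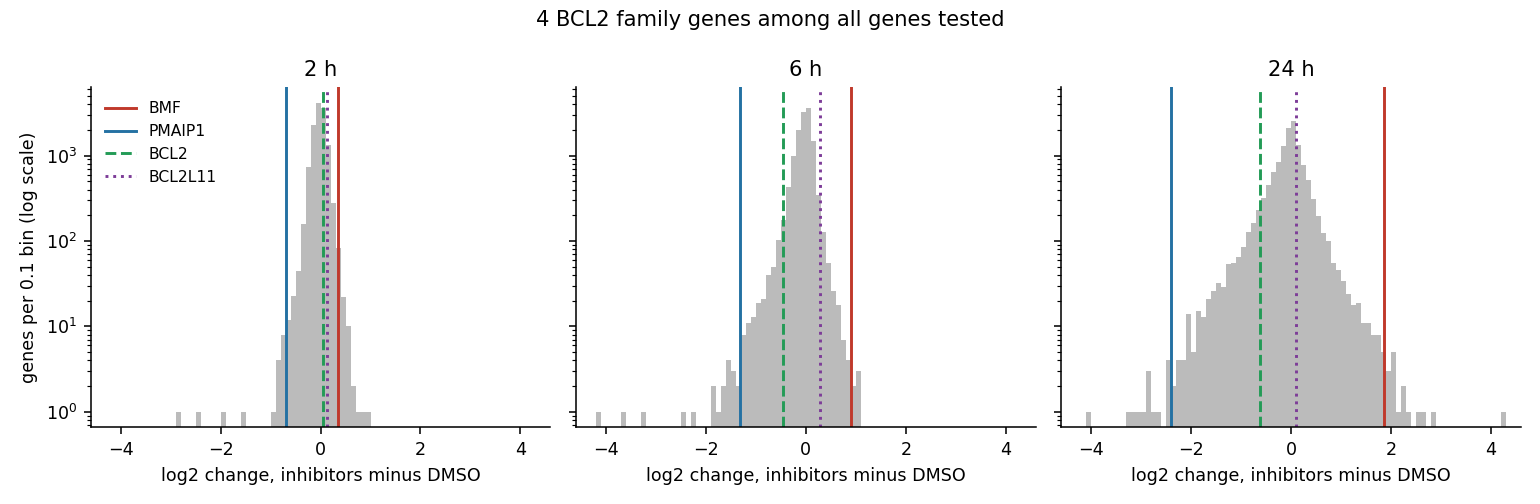
Distribution of the log2 change (horizontal axes, inhibitors minus DMSO) over all 12785 genes tested at 2, 6 and 24 h, genes per bin on a log scale, with BMF, PMAIP1, BCL2 and BCL2L11 as vertical lines. PMAIP1 lies in the lower tail at every time, at positions 21, 19 and 13 from the bottom, and BMF moves to positions 65, 5 and 19 from the top.

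An F-test in the same fit asked whether the change with inhibitor differed among 2, 6 and 24 h, and BMF and PMAIP1 passed it, 2 of 8, against 14.9% of all genes. The limma adjusted p of this joint test was 0.00663 for BMF and 0.00680 for PMAIP1. It was 0.117 for BCL2, which did not pass, but did without the 24 h column of PD184352 (adjusted p = 0.0332) or of PLX4720 (adjusted p = 0.00047). The remaining 5 genes did not pass, with adjusted p between 0.381 and 0.876. As a description with no test of its own, the change at 24 h minus that at 2 h was 1.5 for BMF (SE 0.24), −1.73 for PMAIP1 (SE 0.28) and −0.68 for BCL2 (SE 0.21).

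Across the 9 columns the log2 intensities of BMF and PMAIP1 ran opposite to each other (Pearson r = −0.99), and BCL2 followed PMAIP1 (r = 0.91). BCL2L1 and BAX varied together (r = 0.87), and both were highest at 6 h with every treatment. These are descriptions over 9 columns that share their treatments and times. Over the same columns the genes most like BMF were MAF, a transcription factor, LINC00310 and PHACTR1 (r = 0.994, 0.99 and 0.985), those most like PMAIP1 were LRATD2, PRRX1 and TFB2M (r = 0.997, 0.989 and 0.986), and those most like BCL2L11 were C1QC, GNRH1 and KLF5 (r = 0.939, 0.922 and 0.884). These genes were picked as the highest coefficients of all genes tested.

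The other death genes are given by list, with the calls at 24 h, where 31.6% of all genes tested were called. The counts called were 1 of 9, 3 of 9, 3 of 6 and 2 of 7, and none was tested against that share. Of 9 tested BCL2 relatives outside the 10 genes, 1 rose at 24 h, BNIP3L, a mitochondrial receptor for mitophagy (0.66, SE 0.09, limma adjusted p = 0.00037). Of 9 apoptosome and caspase genes, APAF1, the apoptosome scaffold (−0.30), and CASP2 (−0.28) fell and HTRA2, a mitochondrial protease that blocks inhibitors of apoptosis (0.37), rose. The list of BCL2 relatives and the list of apoptosome and caspase genes had 0 calls at 2 h and at 6 h.

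Of 6 inhibitor of apoptosis genes, BIRC5 (survivin), which also works in cell division, fell by 1.20 on the log2 scale (SE 0.09, limma adjusted p = 9.2e-06) at 24 h. BIRC2, a ubiquitin ligase, fell by 0.55 at 6 h and by 0.42 at 24 h, and NAIP rose by 0.45 at 24 h. Of 7 death receptor genes, the TRAIL receptor TNFRSF10A fell by 0.54 and CFLAR, which holds caspase-8 in check, rose by 0.41 at 24 h. The median change at 24 h was 0.034 for the BCL2 relatives, −0.0015 for the caspase list, 0.0074 for the inhibitors of apoptosis and −0.11 for the death receptor list, against −0.0094 for all genes tested.

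The light chain genes that tether BIM and BMF protein were on a list of 8 binding partners and turnover factors. DYNLL1, whose product binds BIM, fell by 0.43 at 24 h (SE 0.11, limma adjusted p = 0.0163). It was the 1 call on that list, where 31.6% of all genes tested were called. Of 13 transcription factor genes known to act on the family, JUN rose by 2.29 and FOXO4 by 0.59 at 24 h, while MYC fell by 0.86 and E2F1 by 0.64. These 2 higher and 2 lower of 13 stand against 12.5% and 19.2% of all genes tested. MYC had already fallen by 0.79 at 6 h. FOXO1 (0.11, adjusted p = 0.419), MITF (0.22, adjusted p = 0.146), ATF4 (0.23, adjusted p = 0.0790) and DDIT3 (0.046, adjusted p = 0.795) did not pass at 24 h. TP73, SP1, RELA, NFKB1 and STAT3 did not pass either, with limma adjusted p between 0.198 and 0.968. The part of these factors in the changes of BMF, PMAIP1 and BCL2 was not tested.

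**Figure D4:**
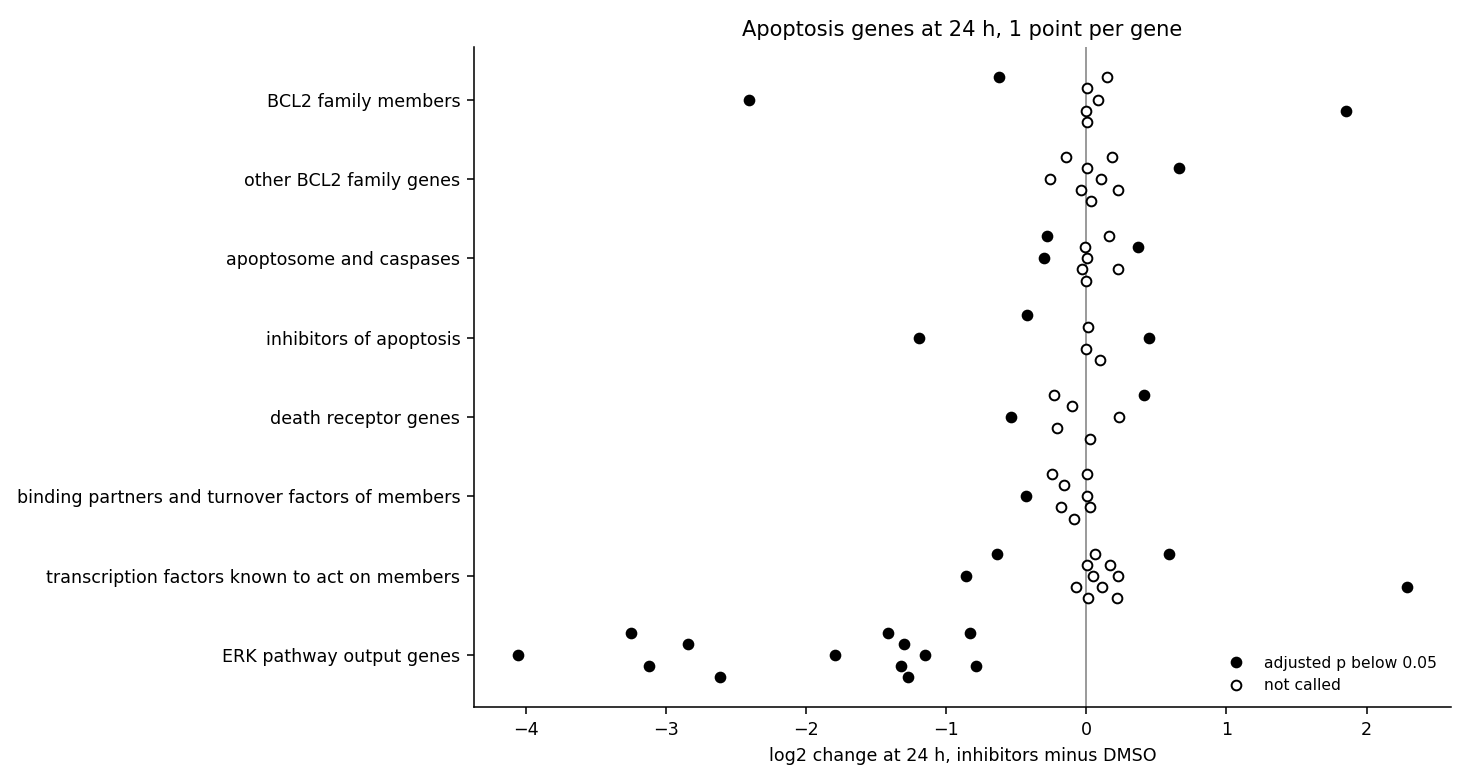
Log2 change at 24 h (horizontal axis, inhibitors minus DMSO) of the 8 measured BCL2 family genes and of the tested genes on each other list, 1 point per gene, filled for an adjusted p below 0.05. BMF at 1.85 and PMAIP1 at −2.41 lie further out than any gene of the 4 lists of other death genes, whose furthest is BIRC5 at −1.20, while all 13 ERK pathway output genes are filled and below 0.

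The ERK pathway output was low in the same columns. Of 13 output genes 4 fell at 2 h, and all 13 fell at 6 h and at 24 h. Of all genes tested 0.0704%, 2.74% and 19.2% fell at these times. The median change of the list was −0.60, −1.55 and −1.42, against −0.024, −0.019 and −0.0094 over all genes tested. This list, too, was chosen with earlier results of these data known. SPRY4, a feedback inhibitor, was at −4.06 at 24 h (SE 0.25), SPRY2 at −2.61 (SE 0.51), the ERK phosphatase DUSP6 at −2.84 (SE 0.56) and the ETS factor ETV5 at −3.25 (SE 0.14). With PD184352 these 4 genes were 21.4-, 10.7-, 13.6- and 10.9-fold lower than with DMSO at 24 h. With PLX4720 they were 12.9-, 3.49-, 3.79- and 8.35-fold lower, with no test between compounds. Of the 8 measured of 10 melanocyte markers 5 lay above the median gene in mean intensity, with PMEL highest (percentile 98.9) and MLANA, GPR143 and TYRP1 below it (percentiles 33.7, 33.0 and 17.9). Their summed intensity ran from 4435 to 6846 in inhibitor columns and from 4750 to 4934 in DMSO columns. Of 7 tested melanocyte markers 5 rose at 24 h, against 12.5% of all genes tested, while MITF and GPR143 did not pass. The part of these markers in the changes of BMF, PMAIP1 and BCL2 was not tested. The 4 measured leukocyte markers summed to 246 to 271 in inhibitor columns and 242 to 263 in DMSO columns. The summed fibroblast markers read 442 to 460 in inhibitor columns and 412 to 439 in DMSO columns. The 4 measured keratinocyte markers summed to 484 to 517 in inhibitor columns and 485 to 534 in DMSO columns. Of these 3 lists KRT14, KRT10 and COL1A1 lay above the median gene (percentiles 58.0, 58.8 and 52.5), and no leukocyte marker did. All cells were of 1 line, and fewer cells in one state and less RNA per cell cannot be told apart in such bulk samples.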

How the data were processed

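Total RNA of A375P cells was biotin-labelled and measured on arrays. Per the labels there is 1 column for each of 3 treatments at 3 times. The authors deposited positive linear intensities, which were put on a log2 scale here. RMA, limma and R 2.8.0 appear in the submitters' processing notes with no stated role, and no genome build is named there.

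From 35446 rows, the 19380 with 1 gene symbol in the platform table were used (3339 had several and 12727 were not in it). For each gene the row with the highest mean of log2(value + 1) was kept, and the 25% of genes with the lowest mean were left out. No column pair was identical (0). limma 3.58.1 in R 4.3.3 fitted 1 coefficient per time for inhibited and for DMSO columns (residual degrees of freedom 3), with Benjamini-Hochberg adjustment over all 12785 genes. The fit was also run on simulated data. Their noise was drawn from the spread between the 2 compounds, so that run cannot check the spread between cultures. The p-values rest on the spread between the 2 compounds, pooled over the 3 times and drawn towards that of all genes. They do not measure the spread between cultures, and the number of arrays limits the precision. The genes, lists and tests were chosen with earlier results of these data known. All family members are named, with called genes of each other list at 24 h (up to 4 each way), listed transcription factors, 4 ERK output genes and the 3 genes most correlated with BMF, BCL2L11 and PMAIP1. Alternatives covered the pseudocount, the filter, normalization, the row kept, the variance prior, the control and each column left out.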

Additional observations from a re-analysis of the deposited data

Results flagged for a closer look

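The change of BMF with both inhibitors differed between 2, 6 and 24 h by limma's F-test (adjusted p = 0.00663), with changes of 0.35, 0.91 and 1.85 at these times. The change of PMAIP1 also differed between the times by that test (adjusted p = 0.00680), with changes of −0.68, −1.31 and −2.41.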

How the results depend on the processing

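Of 84 alternative values of the member changes called at 6 or 24 h, 80 kept direction and call, and the 4 others are BMF at 6 h, given above. At 24 h the number of genes called ran from 3377 to 4948 and the number of members from 2 to 3, being 2 where BCL2 was left out with the lowest 50% of genes. At 6 h the 420 genes called became 253 with no filter on dim genes and 205 to 801 with single columns left out, and the 2 members called became 1 with no filter and 1 to 3 with columns left out. At 2 h the 11 genes called became 22 with a pseudocount of 16, 1 with no filter, 35 with the lowest 50% left out, 0 after quantile normalization, 24 with columns centred on their median, 31 with the mean of the 3 DMSO columns as control and 0 to 95 with columns left out, and the members called were 0 to 1 with columns left out. The single columns behind the range at 6 h were PD184352 6 h (205), PLX4720 6 h (212) and either inhibitor column of 24 h (801), and at 2 h either inhibitor column of 2 h (0), of 6 h (3) or of 24 h (95). Changes that were not called turned sign in places. With the mean of the 3 DMSO columns as control BCL2 was at −0.12 at 2 h, BCL2L1 at 0.12 and BAX at 0.063 at 6 h, and BIK at −0.027 and BCL2L1 at −0.040 at 24 h. After quantile normalization BAX was at 0.078 at 6 h and 0.093 at 24 h. With single columns left out BCL2 at 2 h ran from −0.047 to 0.14, BAX from −0.044 to 0.0036 at 6 h and from −0.074 to 0.073 at 24 h, BBC3 from −0.0011 to 0.016 and BIK from −0.037 to 0.050 at 24 h, and BCL2L11 from −0.13 to 0.032 for 24 h minus 2 h. Where fewer columns or genes entered, that is part of the alternative, and otherwise the cause was not tested. No paired analysis was possible because each treatment and time had 1 column and the labels carry no replicate numbers. Without its DMSO column a time had no control and gives no value.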
